A study of Oryza sativa Japonica Group with 12 samples.

Results

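The genes described here encode the calcium-linked signalling proteins of rice (Oryza sativa, Japonica group) that carry the names CIPK, CBL and CPK. They were chosen by name alone: a gene is a member if its symbol or a synonym in the NCBI gene table, with a leading Os ignored, starts with CIPK, CBL, CPK or CDPK followed by a digit. The table holds 63 such genes among its entries, of which 51 are read by a probe set of the array used, among 17905 genes so read in all. These are 24 of 30 CIPK genes, 7 of 9 CBL genes and 20 of 24 CPK genes. CIPK3, CIPK9, CIPK13, CIPK15, CIPK27, CIPK33, CBL1, CBL7, CPK11, CPK14, CPK25 and CPK28 have no probe set in the annotation used and were not analysed here.

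Calcium rises briefly in plant cells after many signals, such as salt, cold, touch or contact with a microbe, and these 3 families read that rise. CBL proteins (calcineurin B-like) are small calcium sensors without enzyme activity, which bind calcium through EF-hands and then dock on CIPK proteins (CBL-interacting protein kinases). CPK proteins, also written CDPK, carry the calcium-binding part and the kinase in 1 chain and need no separate sensor. In leaves the kinases act on ion channels, transporters and oxidases, among them potassium channels and the sodium exchanger of the salt pathway.

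Transcripts were measured in 12 leaf samples on an Affymetrix array, where each transcript is read by a group of short probes called a probe set. As labelled, 3 wild-type plants (WT1, WT2 and WT3) were compared with 3 transgenic lines over-expressing the microRNA miR156 (OE, lines Md15, Md43 and Mh9 as replicates 1 to 3), all grown in hydroponics and collected at 45 days. Each plant gave leaf 3 (L3) as its old leaf and leaf 6 (L6) as its young leaf, numbered by emergence on the main tiller, so age and position of the leaf changed together. The 4 groups WT_L3, WT_L6, OE_L3 and OE_L6 held 3 arrays each. Hygromycin selection and a check of miR156 by small RNA gel blot are given for the OE plants, no transformed control line is among the samples, and the promoter of the transgene is not given in the sources used here. Transformation and miR156 thus cannot be told apart. MiR156 itself was not analysed here. This microRNA is abundant in juvenile plants and silences SPL transcription factor genes, and the series asks which genes change with it in old and young leaves.

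Array medians lay between 50.8 and 56.5, and precision is limited by 3 arrays a group. Arrays of 1 group correlated at 0.945 to 0.994 over probe sets, a description over features that are not replicates. On a score of leaf age, on which the L3 mean of the opposite genotype is 0 and its L6 mean is 1, L6 arrays lay at 0.877 to 1.10. The L3 arrays were spread from -0.273 to 0.381. WT_L3 replicate 1 scored 0.381, and replicates 2 and 3 scored -0.273 and -0.253. OE_L3 replicates 1 and 2 scored 0.252 and 0.207, and replicate 3 scored -0.217. OE_L6 replicate 1 stood apart in its controls, where the Dap control had 5.35 as the log2 of its 3′ over its 5′ signal against 3.20 to 3.70 on all other arrays. Marks of green leaf tissue are given with SD and n = 3, as for each mean below. The Rubisco small subunit gene RBCS gave a mean signal of 10034 ± 1069 in WT_L3 and 12949 ± 131 in WT_L6. The light-harvesting gene CAB2R went the other way, with 8695 ± 406 and 6346 ± 1295. Summed over the 3 green-leaf genes measured, signals overlapped between the leaves. They were 17941 to 20329 in WT_L3 and 18555 to 20696.5 in WT_L6, and 17055 to 20363 in OE_L3 and 17108 to 20988 in OE_L6.

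Levels below are linear signals. Differences are on the log2(signal + 16) scale, where changes of dim genes come out too small, and were tested with limma over all 57194 probe sets other than array controls, with p-values adjusted by Benjamini-Hochberg and called under 0.05. Each gene is read by its brightest probe set. Signals of different probe sets are not compared, since a probe set's brightness depends on its probes. Of the 51 genes, 42 passed as bright and 9 were dim, which means a mean signal under 41.6, the 40th percentile of all probe sets. In bulk tissue, fewer cells that carry a transcript and less of it per cell cannot be told apart.

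Members of all 3 families differed between old and young leaves, and none passed between the genotypes. In WT, 23 of the 51 genes differed between the young and the old leaf (45.1%), 8 higher and 15 lower in L6, where 49.3% of all genes read by the array differed, 22.4% higher and 26.8% lower. Among genes that were not dim, 23 of 42 members differed, against 53.2% of all. The share that differed was thus near that of all genes. By family, 12 of 24 CIPK genes differed (5 higher and 7 lower), 2 of 7 CBL genes (1 and 1) and 9 of 20 CPK genes (2 and 7). Groups without overlap were found for 29 members, against 59.4% of all genes. By at least 2-fold, 9 members differed, against 18.3% of all. The median log2 difference was -0.08 over the CIPK genes, -0.02 over the CBL genes and -0.04 over the CPK genes, beside -0.02 over all 17905 genes. No dim gene passed, on a scale where changes of dim genes come out too small.

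In OE, 19 of the 51 genes differed between the leaves (37.3%), 4 higher and 15 lower in L6, against 42.6% of all genes, 17.2% higher and 25.4% lower. Among genes that were not dim the count was 19 of 42, against 45.8%. By family, 8 CIPK genes differed (1 higher and 7 lower), 1 CBL gene (higher) and 10 CPK genes (2 higher and 8 lower). The groups did not overlap in 25 members, against 64.8% of all genes, and 7 members differed by at least 2-fold, against 13.3%. The median log2 differences were -0.13 for CIPK, -0.02 for CBL and -0.000932 for CPK genes, beside -0.02 over all genes. The leaf comparisons in WT and OE share no array but share 1 estimate of the spread, so their calls are not independent. Of the members, 13 fell in both and 3 rose in both (CIPK6, CBL10 and CPK23), and none passed in opposite directions. How many of all genes did so was not counted, so this is not read as a trait of the families. CIPK1, CIPK11, CIPK14, CIPK18, CIPK32, CBL3 and CPK3 passed in WT and not in OE under the settings used here, and CIPK7, CPK9 and CPK20 in OE and not in WT. None of these differences between the genotypes passed as an interaction, and for several of them, CIPK18, CPK3, CBL3 and CIPK7 among them, the genotype in which the call is made changes with the settings, as given beside each.

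**Figure D1:**
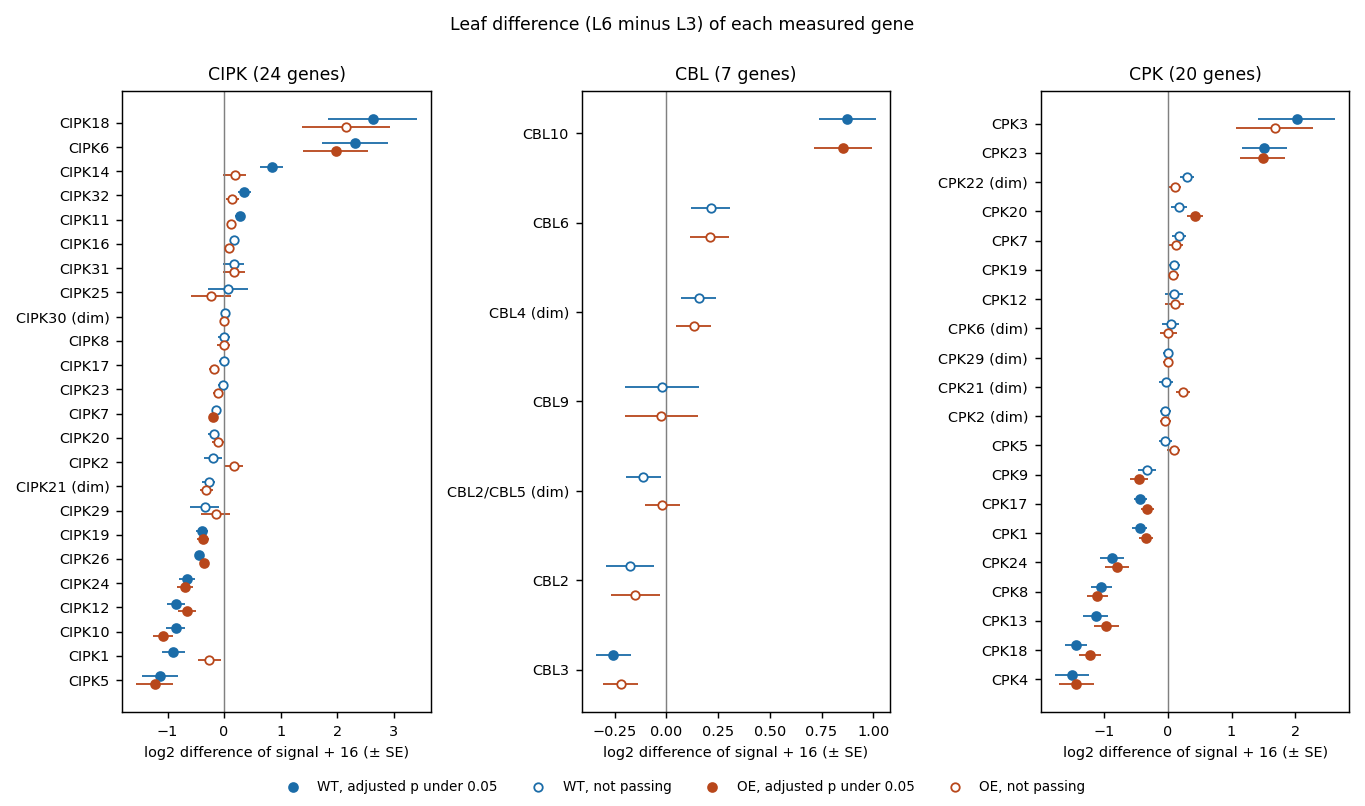
Leaf difference of each of the 51 measured genes, as the log2 difference of L6 minus L3 with its SE from limma, in WT (blue) and OE (red), by family; the x axes differ between families. Filled points passed at an adjusted p under 0.05. In their panels CIPK18, CIPK6, CPK3 and CPK23 lie farthest to the right and CPK4, CPK18 and CIPK5 farthest to the left, and in these 7 genes the WT and OE points lie on the same side of 0.

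The sensors come first in the pathway. CBL10, which in Arabidopsis recruits the salt kinase CIPK24 to membranes of the shoot, had the largest leaf difference among them. CBL10 (LOC4325933) was at 149, 108 and 102 in WT_L3, 214, 235 and 243 in WT_L6, 144, 133 and 104 in OE_L3 and 241, 238 and 243 in OE_L6. Every L6 array lay above every L3 array, and the genotypes overlapped. The rise was 1.83-fold in WT (log2 difference 0.88, SE 0.14, adjusted p = 0.00113) and 1.81-fold in OE (log2 difference 0.85, SE 0.14, adjusted p = 0.00148), and both calls held without any 1 of the 12 arrays.

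CBL3 (LOC4333502), in Arabidopsis a sensor at the vacuole membrane, was at 541, 585 and 605 in WT_L3, 499, 454 and 489 in WT_L6, 579.7, 588 and 589.9 in OE_L3 and 497, 477 and 529 in OE_L6. All L3 arrays were above all L6 arrays in each genotype, but the step was small. It passed in WT (log2 difference -0.26, SE 0.09, adjusted p = 0.0423) and not in OE (log2 difference -0.22, adjusted p = 0.0779). The OE value passed with a filter at the 40th or 60th percentile (0.0381 and 0.0273), without the trend (0.031), with the mean of all probe sets per gene (0.0269) and with 1 probe set per gene before adjustment (0.0276). The WT call was lost with the plant or the replicate number as a block (adjusted p = 0.133 and 0.0571), after quantile normalization (0.0604), with only the groups compared (0.126) and without any 1 of OE_L3 replicates 1, 2 and 3, OE_L6 replicates 1 and 3, WT_L3 replicates 2 and 3 and WT_L6 replicates 1, 2 and 3 (adjusted p of up to 0.153).

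CBL6 (LOC4351575) was at 774, 658 and 673 in WT_L3, 775, 781 and 893 in WT_L6, 723, 710.2 and 711 in OE_L3 and 791, 859 and 839 in OE_L6. It did not pass in WT (log2 difference 0.21, SE 0.09, adjusted p = 0.106) or in OE (log2 difference 0.21, SE 0.09, adjusted p = 0.119). The WT value passed without WT_L3 replicate 1 (log2 0.29, adjusted p = 0.0378), with a filter at the 60th percentile (0.0492), with the mean of all probe sets per gene (0.0481) and with 1 probe set per gene before adjustment (0.0479). CBL2 (LOC4352701) was at 352, 338 and 325 in WT_L3, 331, 294 and 271 in WT_L6, 422, 322 and 342 in OE_L3 and 341, 297 and 330.3 in OE_L6, with overlapping leaves in each genotype and log2 differences of -0.18 and -0.15 that did not pass. CBL9 (LOC9269084), on a probe set of the _x_at type that can also bind related transcripts, had leaf differences of -0.02 in WT and -0.02 in OE.

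The remaining sensors were dim. CBL4, the rice counterpart of the Arabidopsis salt sensor SOS3, had group means of 33.4 to 42.1. The gene listed under both CBL2 and CBL5 (LOC4325962) had group means of 17.8 to 20.3.

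Among the kinases that these sensors bind, the members with the largest rises were CIPK18 and CIPK6. CIPK18 (LOC4338445, also listed as CIPK22) was at 394, 29.2 and 32.02 in WT_L3, 528, 588 and 625 in WT_L6, 207, 231 and 33.1 in OE_L3 and 558, 681 and 587 in OE_L6. The L3 arrays were split: WT_L3 replicate 1 was far brighter than replicates 2 and 3, and OE_L3 replicate 3 was as dim as those. The rise was 6.18-fold in WT (log2 difference 2.63, SE 0.78, adjusted p = 0.0261) and did not pass in OE (log2 difference 2.16, SE 0.78, adjusted p = 0.0617). Without WT_L3 replicate 1 the log2 difference in WT was 3.67 and the OE value passed (adjusted p = 0.00593). The OE value also passed with a pseudocount of 64 (0.0359) and with only the groups compared (0.0335). The WT call was lost in a robust fit (0.0522), with only the groups compared (0.0538) and without any 1 of WT_L3 replicates 2 and 3 and WT_L6 replicates 1, 2 and 3 (adjusted p of up to 0.108).

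CIPK6 (LOC4345687) was at 265, 28.8 and 31.6 in WT_L3, 410.3, 386 and 415 in WT_L6, 77.1, 97.5 and 30.8 in OE_L3 and 326, 296 and 264 in OE_L6. Its L3 arrays were also uneven, with WT_L3 replicate 1 the highest, and every L6 array was above every L3 array within each genotype. It rose in WT (log2 difference 2.31, SE 0.58, adjusted p = 0.0121) and in OE (log2 difference 1.97, SE 0.58, adjusted p = 0.028). The WT call was lost without any 1 of WT_L3 replicates 2 and 3 (adjusted p of up to 0.0568), and the OE call without any 1 of OE_L3 replicate 3 and OE_L6 replicates 1, 2 and 3 (adjusted p of up to 0.108).

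CIPK14 (LOC4351307), which with CIPK15 takes part in defence responses of rice cells to microbial molecules, was at 575, 321 and 440.3 in WT_L3, 696, 838 and 840.4 in WT_L6, 859, 715 and 636 in OE_L3 and 877, 683 and 977 in OE_L6. The low group was WT_L3 alone, whose arrays lay below all arrays of the other 3 groups. It rose in L6 of WT (log2 difference 0.84, SE 0.20, adjusted p = 0.0103), and in OE its log2 difference was 0.19 (95% confidence interval -0.26 to 0.64, adjusted p = 0.527). The interaction was -0.65 (unadjusted p = 0.0457, limma adjusted p = 1) and did not pass.

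Smaller rises were seen for CIPK32 and CIPK11. CIPK32 (LOC4351419) was at 594, 522 and 594 in WT_L3, 725, 702 and 770.4 in WT_L6, 560.0, 578 and 518 in OE_L3 and 512, 678 and 655 in OE_L6 (log2 difference 0.36, SE 0.12, adjusted p = 0.0379 in WT; log2 0.14 in OE). Its WT call was lost with the plant or the replicate number as a block (adjusted p = 0.0777 and 0.056) and with only the groups compared (0.055). It was also lost without any 1 of OE_L3 replicates 1 and 2, WT_L3 replicates 2 and 3 and WT_L6 replicates 1, 2 and 3 (adjusted p of up to 0.138). A second, dim CIPK32 probe set passed in WT (log2 0.27, limma adjusted p = 0.0235) and not in OE (log2 0.09, 0.438). CIPK11 (LOC107275263), on an _s_at probe set that can bind several related transcripts, had a log2 difference of 0.28 in WT (adjusted p = 0.0206). That call was lost with the plant as a block (adjusted p = 0.0676) and without any 1 of WT_L3 replicates 2 and 3 and WT_L6 replicate 2 (adjusted p of up to 0.0808).

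The CIPK genes that fell were CIPK1, CIPK5, CIPK10, CIPK12, CIPK19, CIPK24 and CIPK26 in WT, and these without CIPK1 but with CIPK7 in OE. CIPK5 (LOC4327093) was at 206, 389.7 and 347 in WT_L3, 115, 155 and 123 in WT_L6, 211, 164 and 348 in OE_L3 and 101, 52.9 and 128 in OE_L6. It was more than 2-fold lower in L6 in both genotypes (log2 difference -1.13, SE 0.32, adjusted p = 0.0218 in WT; log2 difference -1.23, SE 0.32, adjusted p = 0.0174 in OE). Its L3 arrays were widely spread, and the WT call was lost without any 1 of WT_L3 replicates 2 and 3 and WT_L6 replicates 1 and 3 (adjusted p of up to 0.0888). The OE call was lost without any 1 of OE_L3 replicate 3 and OE_L6 replicate 2 (adjusted p of up to 0.0709).

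CIPK10 (LOC4332786) was at 1550.0, 2070.2 and 2077 in WT_L3, 1260.5, 901 and 967 in WT_L6, 2144, 1771 and 1925 in OE_L3 and 960.4, 732 and 1068 in OE_L6. Old leaves were brighter than young leaves on every array, by 1.81-fold in WT (log2 difference -0.86, SE 0.17, adjusted p = 0.00423) and 2.12-fold in OE (log2 difference -1.08, SE 0.17, adjusted p = 0.00137). Its 3 further probe sets had log2 differences of -0.67, -0.98 and -0.60 in WT and -0.71, -1.09 and -1.39 in OE. Of these 6 values 5 passed, and -0.60 in WT did not (adjusted p = 0.188).

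CIPK1 (LOC4325161) was at 697, 871 and 855 in WT_L3, 555, 371 and 369.6 in WT_L6, 682, 659 and 591 in OE_L3 and 466, 747 and 438 in OE_L6. Within WT all L3 arrays were above all L6 arrays, whereas OE_L6 replicate 2 was above all OE_L3 arrays. It fell in WT (log2 difference -0.90, SE 0.21, adjusted p = 0.00839) and did not pass in OE (log2 -0.26, 95% confidence interval -0.72 to 0.20, adjusted p = 0.391). The interaction was 0.64 (unadjusted p = 0.0532, limma adjusted p = 1).

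CIPK12 (LOC4325613), whose over-expression raises drought tolerance in rice, was at 119.9, 153 and 143 in WT_L3, 84.3, 61.99 and 64.2 in WT_L6, 97.3, 103 and 104 in OE_L3 and 70.2, 40.2 and 69.6 in OE_L6. It fell in WT (log2 difference -0.85, SE 0.16, adjusted p = 0.00329) and in OE (log2 difference -0.66, SE 0.16, adjusted p = 0.0136), with no overlap between the leaves. A second CIPK12 probe set had -0.20 and -0.13 without passing, so the probe sets differ in size.

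CIPK24 (LOC4341477) is the rice SOS2, the kinase that with CBL4 switches on the sodium exchanger SOS1. It was at 379, 537 and 493 in WT_L3, 320.0, 266 and 285 in WT_L6, 482, 460.3 and 515 in OE_L3 and 318, 256 and 315 in OE_L6. Every L3 array lay above every L6 array, and it fell in WT (log2 difference -0.65, SE 0.14, adjusted p = 0.00544) and OE (log2 difference -0.69, SE 0.14, adjusted p = 0.00485) alike, with both calls kept without any 1 array. CIPK26 fell by a smaller step (log2 -0.44 in WT and -0.35 in OE, adjusted p = 0.00237 and 0.00823). CIPK19 had -0.39 and -0.37 (adjusted p = 0.014 and 0.0198; 0.0605 and 0.0754 with the plant as a block). Its WT call was also lost without any 1 of WT_L3 replicate 2 and WT_L6 replicate 2 (adjusted p of up to 0.0643), and its OE call without any 1 of OE_L3 replicates 2 and 3 and OE_L6 replicates 1 and 2 (adjusted p of up to 0.0752).

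**Figure D2:**
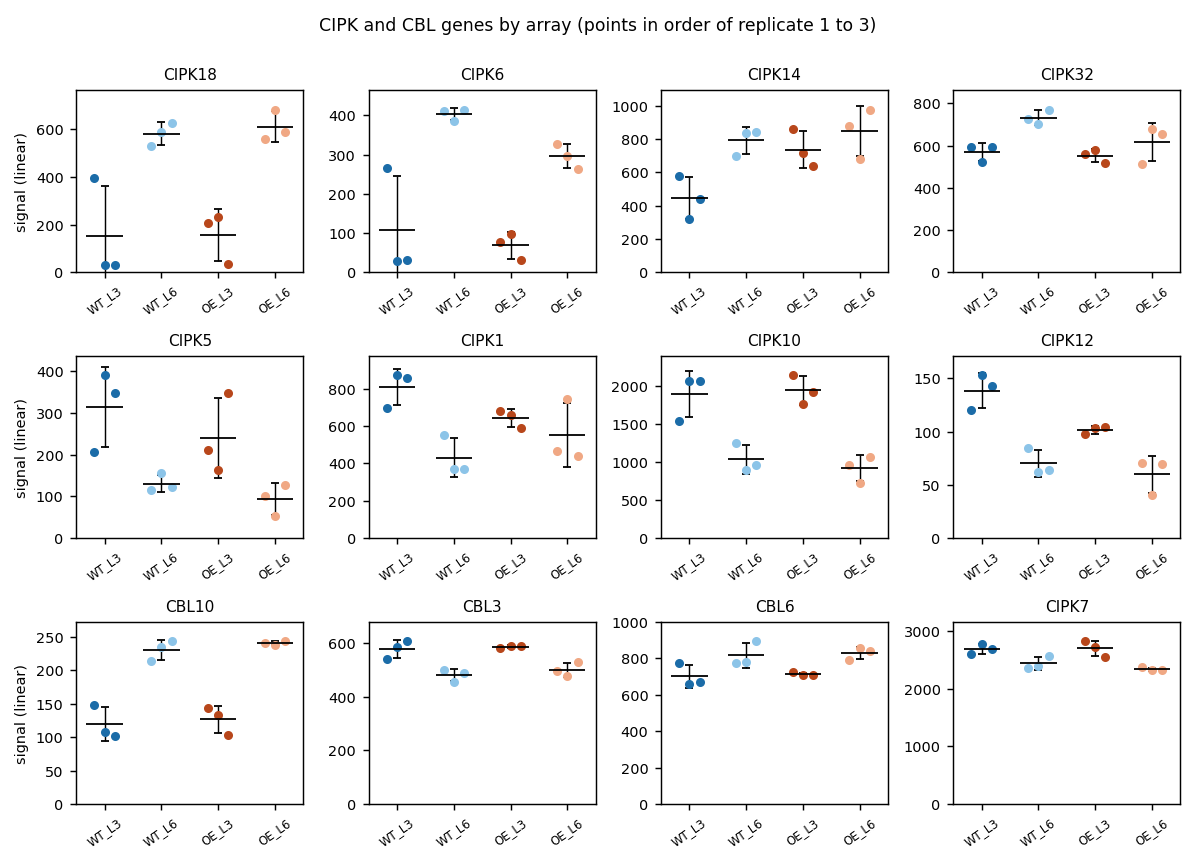
Linear signal of 9 CIPK and 3 CBL genes on each array, with the mean (line) and SD (bar) of the 3 arrays of each group; points stand in order of replicate number, and y axes start at 0, where SD bars are cut off, and differ between genes. CBL10 is higher in every L6 array than in every L3 array, CIPK10 is lower, and CIPK18 and CIPK6 are split among the L3 arrays.

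For CIPK23 and CIPK7 the probe sets disagreed. CIPK23 (LOC4342410), which with CBL1 activates the potassium channel AKT1 in rice roots, was at 489.7, 465 and 458 in WT_L3, 478, 442 and 478 in WT_L6, 545, 485 and 517 in OE_L3 and 455, 487 and 480.2 in OE_L6 on its brightest probe set, with leaf differences of -0.01 in WT and -0.12 in OE that did not pass. Its second probe set fell from a mean of 477 in WT_L3 to 153 in WT_L6 (log2 -1.55, adjusted p = 0.00013) and from 372 in OE_L3 to 148 in OE_L6 (log2 -1.23, adjusted p = 0.000583).

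CIPK7 (LOC4333514) was read by its brightest probe set at 2605, 2767 and 2697 in WT_L3, 2359.9, 2391 and 2575 in WT_L6, 2819.9, 2725 and 2558 in OE_L3 and 2369.7, 2329 and 2322 in OE_L6. This probe set changed little (log2 difference -0.14, SE 0.06, adjusted p = 0.125 in WT; log2 difference -0.20, SE 0.06, adjusted p = 0.0368 in OE, 0.0956 with the plant as a block). The OE call was also lost after quantile normalization (0.0675), in a robust fit (0.0545), with the replicate number as a block (0.058), with only the groups compared (0.0953) and without any 1 of OE_L3 replicates 1 and 2, OE_L6 replicates 1, 2 and 3, WT_L3 replicate 3 and WT_L6 replicate 2 (adjusted p of up to 0.113). With the mean of all probe sets the WT value passed (log2 -0.61, adjusted p = 0.00491). A second probe set fell from a mean of 333 to 150.3 in WT (log2 -1.08, adjusted p = 0.00695) and from 313 to 91.6 in OE (log2 -1.64, adjusted p = 0.000825). The gene table lists this gene also under TATA and THA4, names that belong to a chloroplast protein transport component, so which transcript each probe set reads is not settled here.

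Of the other CIPK genes, CIPK2, CIPK8, CIPK16, CIPK17, CIPK20, CIPK25, CIPK29 and CIPK31 were not dim and did not pass between leaves of either genotype, with log2 differences from -0.34 to 0.18. CIPK25 (LOC4341236) had 1 array that stood apart, at 1259, 403 and 1304 in OE_L6 against 1007, 996 and 1094 in OE_L3. A further CIPK31 probe set, of the _x_at type, passed in OE (log2 0.38, adjusted p = 0.0283) and not in WT (0.30, adjusted p = 0.0622). CIPK21 and CIPK30 were dim, with their highest group means at 27.5 and 9.62.

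Of the 20 measured genes for the calcium-dependent kinases that carry their own sensor, 7 were lower and 2 higher in the young leaf of WT. In OE 8 were lower and 2 higher, and the others did not pass. Over all genes, 26.8% were lower and 22.4% higher in WT, and 25.4% and 17.2% in OE. CPK4 (LOC4328155), whose over-expression raises salt and drought tolerance in rice, was at 1131, 1701 and 1175 in WT_L3, 707, 328 and 394 in WT_L6, 768, 986 and 1167 in OE_L3 and 379, 278 and 386 in OE_L6. The lowest L3 array, OE_L3 replicate 1, was above the highest L6 array, WT_L6 replicate 1. It fell 2.84-fold in WT (log2 difference -1.51, SE 0.27, adjusted p = 0.0023) and 2.71-fold in OE (log2 difference -1.44, SE 0.27, adjusted p = 0.00341).

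CPK18 (LOC4343002), a kinase that holds back blast resistance in rice, was at 368, 500.4 and 514 in WT_L3, 193, 154 and 129 in WT_L6, 378, 461 and 529.8 in OE_L3 and 175, 182 and 199 in OE_L6. Old and young leaves were far apart on every array, and this gene had the smallest p of all members in the WT comparison (log2 difference -1.45, SE 0.17, adjusted p = 0.000211; OE log2 difference -1.22, SE 0.17, adjusted p = 0.000665). The probe set is of the _s_at type, so related transcripts are not told apart. A second, dim probe set also passed, with log2 differences of -0.34 in WT and -0.52 in OE.

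CPK13 (LOC4336783), studied in rice for cold, salt and drought tolerance, was at 1437, 1767 and 1610.3 in WT_L3, 977, 565 and 668 in WT_L6, 1079.7, 1408 and 1493 in OE_L3 and 747, 577 and 679 in OE_L6. It fell in WT (log2 difference -1.14, SE 0.19, adjusted p = 0.00166) and in OE (log2 difference -0.97, SE 0.19, adjusted p = 0.00462), and its second probe set also fell, with log2 differences of -0.91 and -0.89 (adjusted p = 0.00302 and 0.00377). CPK8 (LOC4334519) was at 591, 802 and 867 in WT_L3, 354, 331 and 372 in WT_L6, 578, 782 and 864 in OE_L3 and 326, 311 and 352 in OE_L6. All L6 arrays of CPK8 lay within 311 to 372 and all L3 arrays above 577, and it fell in both (log2 difference -1.05, SE 0.17, adjusted p = 0.00112 in WT; log2 difference -1.11, SE 0.17, adjusted p = 0.000897 in OE).

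CPK24 (LOC4349899), which acts in the cold response of rice, was at 1245, 1448 and 1603 in WT_L3, 1007, 724 and 613 in WT_L6, 1356, 1388 and 1530.5 in OE_L3 and 879, 636 and 952 in OE_L6. It was 1.84-fold lower in L6 of WT (log2 difference -0.88, SE 0.19, adjusted p = 0.00567) and 1.74-fold lower in OE (log2 difference -0.80, SE 0.19, adjusted p = 0.0108). CPK1 fell, with log2 differences of -0.44 in WT and -0.34 in OE (adjusted p = 0.0141 and 0.0465), and CPK17, another cold-response kinase, with -0.44 and -0.32 (adjusted p = 0.0086 and 0.0362). With the plant as a block the OE values of CPK1 and CPK17 did not pass (adjusted p = 0.103 and 0.0726). The OE call of CPK1 was lost without any 1 of OE_L3 replicates 1, 2 and 3, OE_L6 replicates 1, 2 and 3, WT_L3 replicates 2 and 3 and WT_L6 replicate 2 (adjusted p of up to 0.141), and its WT call without any 1 of WT_L6 replicates 2 and 3 (adjusted p of up to 0.0617). The OE call of CPK17 was lost without any 1 of OE_L3 replicates 2 and 3, OE_L6 replicates 1, 2 and 3 and WT_L6 replicate 2 (adjusted p of up to 0.146). CPK4, CPK8, CPK13, CPK18 and CPK24 kept their calls in both genotypes without any 1 of the 12 arrays.

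CPK23 and CPK3 were the CPK genes that rose in WT. CPK23 (LOC4349249, also listed as spk), first described as a kinase of developing seeds, was at 339, 139 and 118 in WT_L3, 454, 546 and 638 in WT_L6, 191, 212 and 96.2 in OE_L3 and 417, 534 and 477 in OE_L6. Every L6 array was above every L3 array, and it rose in WT (log2 difference 1.52, SE 0.35, adjusted p = 0.00821) and OE (log2 difference 1.49, SE 0.35, adjusted p = 0.0105). CPK3 (LOC4327438) was at 658, 113 and 129.6 in WT_L3, 1005, 915 and 880.3 in WT_L6, 470.3, 447 and 108 in OE_L3 and 1020.2, 934 and 916 in OE_L6. Its L3 arrays were split like those of CIPK18. It rose in WT (log2 difference 2.02, SE 0.61, adjusted p = 0.0273) and did not pass in OE (log2 difference 1.68, SE 0.61, adjusted p = 0.0622). Without WT_L3 replicate 1 the OE value passed (adjusted p = 0.00979), since the groups share 1 estimate of the spread. The OE value also passed after quantile normalization (0.0447), with a pseudocount of 64 (0.0489), with the replicate number as a block (0.0381) and with only the groups compared (0.0457). The WT call was lost in a robust fit (0.0524) and without any 1 of WT_L3 replicates 2 and 3 and WT_L6 replicates 1, 2 and 3 (adjusted p of up to 0.112).

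CPK9 and CPK20 passed in OE and not in WT. CPK9, a drought-response kinase of rice, had log2 differences of -0.33 in WT and -0.46 in OE (adjusted p = 0.0926 and 0.0327). CPK20 (LOC4343644) was at 518, 447 and 370.3 in WT_L3, 539.8, 466 and 499 in WT_L6, 357, 383 and 336 in OE_L3 and 535, 444 and 482 in OE_L6, with 0.18 in WT and 0.42 in OE (adjusted p = 0.331 and 0.0318). The OE calls of CPK9 and CPK20 were lost with the plant as a block (adjusted p = 0.0605 and 0.0621). They were also lost, for CPK9, without any 1 of OE_L3 replicates 2 and 3 and OE_L6 replicates 1, 2 and 3 (adjusted p of up to 0.111) and, for CPK20, without any 1 of OE_L3 replicates 1 and 3 and OE_L6 replicates 1 and 3 (adjusted p of up to 0.11).

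CPK19 (LOC4343373) was at 1212, 1042 and 1099 in WT_L3, 1228, 1117 and 1257 in WT_L6, 1171, 1109 and 1141 in OE_L3 and 1274, 1157 and 1201 in OE_L6 (log2 0.10, 95% confidence interval -0.09 to 0.29, in WT and 0.08, -0.10 to 0.27, in OE). CPK5, CPK7 and CPK12, of which CPK12 acts in salt tolerance of rice, had differences from -0.04 to 0.18 without passing. CPK2, CPK6, CPK21, CPK22 and CPK29 were dim, with highest group means of 14.3, 30.4, 27.1, 28.6 and 15.2.

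**Figure D3:**
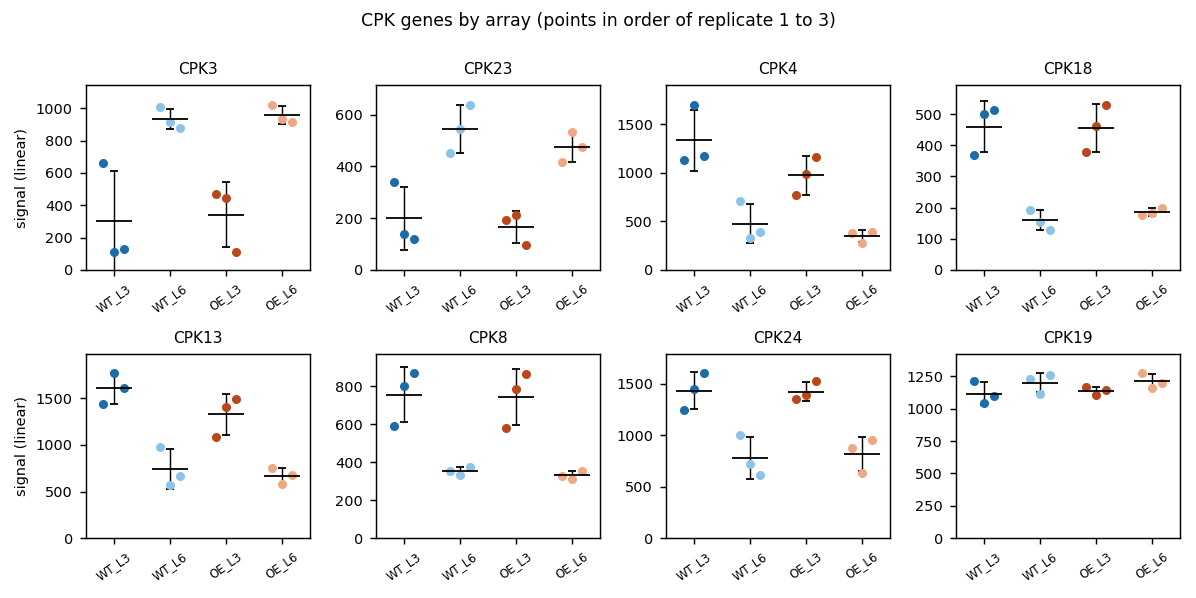
Linear signal of 8 CPK genes on each array, with the mean (line) and SD (bar) of the 3 arrays of each group; points stand in order of replicate number, and y axes start at 0, where SD bars are cut off, and differ between genes. CPK3 and CPK23 are brightest in L6, CPK4, CPK18, CPK13, CPK8 and CPK24 in L3, and CPK19 is level over the 4 groups.

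Several genes with large rises were uneven among old leaves. CIPK6, CIPK18, CPK3 and CPK23, grouped here after their values were seen, were brightest in WT_L3 replicate 1 among the L3 arrays. They were lowest in WT_L3 replicates 2 and 3 and OE_L3 replicate 3, and between these in OE_L3 replicates 1 and 2. The leaf-age scores split these arrays in the same way. In WT the unevenness was not limited to genes that rose. Of the members that fell in WT, all but CPK17 (374, 371 and 404) were lowest in replicate 1 among the WT_L3 arrays. The gap was wide for CPK8 (591, 802 and 867) and small for CPK1 (1097, 1108 and 1108.5). The leaf-age score, taken over all probe sets, also set this array nearest to L6 among the L3 arrays. How many of all genes that fell in WT were lowest on it was not counted. The pattern is thus not read as a trait of the members. On the log2 scale, the variance within a group averaged over the 51 members was 0.187 for WT_L3, 0.102 for OE_L3, 0.0365 for WT_L6 and 0.0501 for OE_L6. Over all probe sets it was 0.109, 0.0767, 0.0309 and 0.0360 in that order. The model pools them.

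Genes of dividing cells (15 measured cyclin, CDKB, MCM and PCNA genes, none at 0) showed the same split among the L3 arrays. Their summed signal was 4165 in WT_L3 replicate 1, 948 and 949 in replicates 2 and 3, 2502 and 2975 in OE_L3 replicates 1 and 2, and 907 in replicate 3, against 3295 to 6543 in WT_L6 and 4867 to 6422 in OE_L6. Of the 15, 7 were higher in L6 of WT and 1 in L6 of OE, against 22.4% and 17.2% of all genes. Their median log2 difference was 1.75 in WT and 1.59 in OE, and none of the 15 passed as an interaction. Of 4 measured chlorophyll-breakdown genes, SGR and RCCR1 were lower in L6 in both genotypes, and NYC1 and NOL did not pass. Their summed signal was 3812 to 4723 in WT_L3 and 2601 to 3381 in WT_L6, 4126 to 4804 in OE_L3 and 2579 to 3628 in OE_L6. The part of either in the results of the calcium-linked genes was not tested. Without WT_L3 replicate 1 the members called numbered 25 in WT and 21 in OE, and without OE_L6 replicate 1 they numbered 23 and 12. The shares of all genes without these arrays were not computed.

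**Figure D4:**
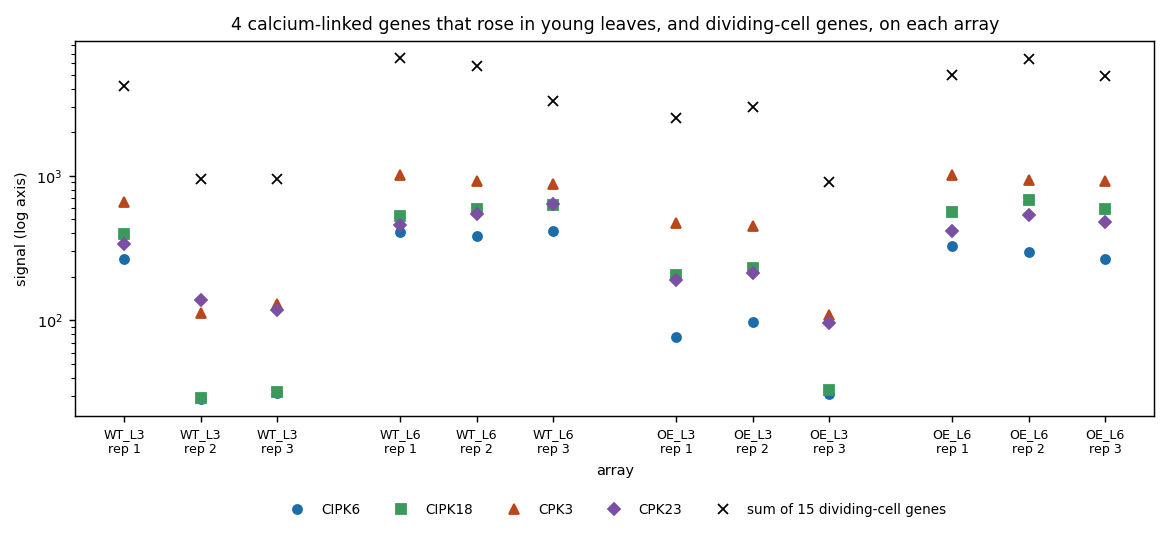
Signal on a log axis of CIPK6, CIPK18, CPK3 and CPK23 and the summed signal of 15 dividing-cell genes on each of the 12 arrays, by group and replicate. Among L3 arrays all 5 series are highest in WT_L3 replicate 1 and low in WT_L3 replicates 2 and 3 and OE_L3 replicate 3.

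With extra miR156, no member of the 3 families passed in either leaf. In L3, 0 of 51 passed, against 0.0894% of all genes, and 4 had an unadjusted p under 0.05, against 4.13% of all genes. These were CIPK2, CIPK12, CIPK14 and CPK20. OE and WT did not overlap for CIPK1, CIPK12, CIPK14 and CIPK25, which is 4 members, against 8.63% of all genes. In L6, 0 of 51 passed, against 0.0503%, 2 had an unadjusted p under 0.05, against 6.78%, and 5 had groups that did not overlap, against 15.4%. The 2 were CIPK16 and CIPK32, and the 5 were these with CIPK6, CIPK17 and CPK5. The smallest adjusted p was 0.67 in L3 and 0.736 in L6. All log2 differences lay between -0.45 and 0.73 in L3 and between -0.48 and 0.32 in L6. The interaction of leaf and genotype also called 0 of 51, against 0.0112%, and 1 member had an unadjusted p under 0.05, against 2.4%.

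CIPK14 in old leaves had the smallest unadjusted p, with all OE_L3 arrays above all WT_L3 arrays as given above. Its log2 difference of OE minus WT was 0.73 in L3 (SE 0.20, unadjusted p = 0.0042, limma adjusted p = 0.67) and 0.08 in L6 (95% confidence interval -0.36 to 0.53). CIPK2 (LOC4344287), on an _x_at probe set, was at 1281, 868 and 879 in WT_L3, 909, 842 and 854 in WT_L6, 748, 892 and 663 in OE_L3 and 855, 807 and 938 in OE_L6. WT_L3 replicate 1 was its highest array, and the L3 groups overlapped (log2 difference -0.38, unadjusted p = 0.0334).

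In L6 the CIPK genes with the smallest p were CIPK16 and CIPK32. CIPK16 (LOC4347071), also on an _x_at probe set, was at 129, 143 and 138 in WT_L6 and 116, 111 and 123 in OE_L6 (log2 -0.20, unadjusted p = 0.0384, limma adjusted p = 0.736). CIPK32, whose values are given above, had -0.26 (unadjusted p = 0.0492, limma adjusted p = 0.746). All OE_L6 arrays of CIPK16 and CIPK32 were below all WT_L6 arrays.

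Among CPK genes, CPK20 and CPK5 had the smallest p in L3, at log2 differences of -0.29 and -0.22 (unadjusted p = 0.0459 and 0.0509 in limma). CPK5 (LOC4330351), on an _s_at probe set, was at 623, 511 and 553 in WT_L3 and 486, 522 and 432 in OE_L3, which overlap. In L6, CPK4 and CPK18 had -0.38 and 0.22 (95% confidence intervals -0.98 to 0.22 and -0.16 to 0.60), with overlapping groups for both. In the interaction, CPK21, which is dim, and CPK20 had 0.27 and 0.25 (unadjusted p = 0.116 and 0.202 in limma). CPK21 (LOC4346187), a salt-tolerance kinase of rice, was at 24.1, 29.1 and 23.1 in WT_L3, 30.1, 20.4 and 23.4 in WT_L6, 16.4, 19.6 and 26.2 in OE_L3 and 27.3, 24.1 and 29.9 in OE_L6, with all groups overlapping.

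For the sensors, the log2 differences of the 7 CBL genes lay between -0.08 and 0.08 in L3 and between -0.10 and 0.11 in L6. CBL4 (LOC4339432) was at 33.2, 40.8 and 34.4 in WT_L3, 45.5, 35.96 and 44.9 in WT_L6, 32.1, 33.98 and 34.05 in OE_L3 and 34.3, 38.6 and 41.7 in OE_L6, and the gene listed under CBL2 and CBL5 at 19.4, 20.9 and 20.6 in WT_L3, 18.6, 13.6 and 21.1 in WT_L6, 15.4, 19.05 and 20.7 in OE_L3 and 19.1, 16.4 and 18.05 in OE_L6. The 95% confidence interval in L6 ran from -0.15 to 0.37 for CBL2 and, for CBL4, from -0.28 to 0.09. The interactions of CBL3 and of the gene listed under CBL2 and CBL5 were 0.03 and 0.09.

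**Figure D5:**
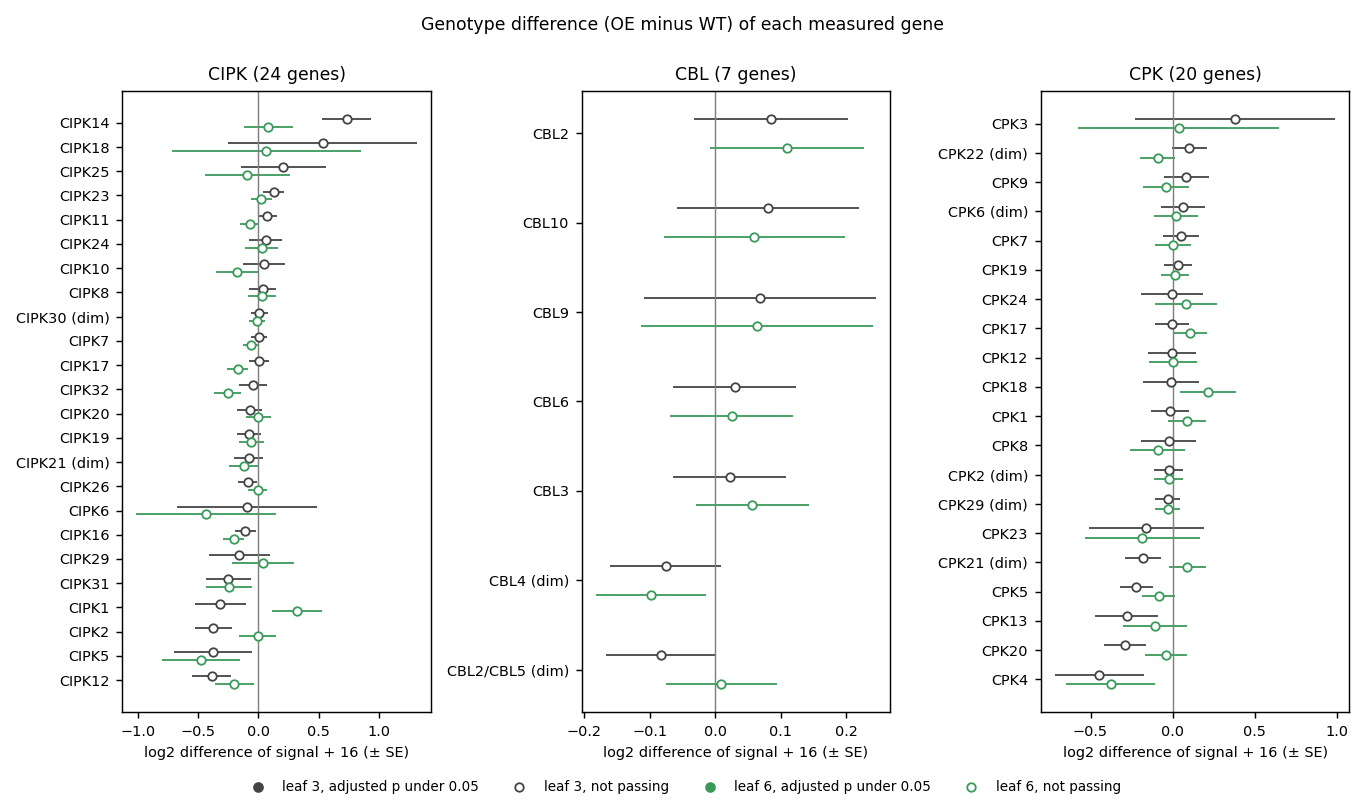
Genotype difference of each of the 51 measured genes, as the log2 difference of OE minus WT with its SE from limma, in leaf 3 (grey) and leaf 6 (green), by family; the x axes differ between families. All points are open, since no member passed. CIPK14 in leaf 3 lies farthest to the right at 0.73.

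Other lists of calcium signalling genes are read against all genes, of which 22.4% were higher and 26.8% lower in L6 of WT (49.3% in all) and 17.2% and 25.4% in L6 of OE (42.6% in all). Of 26 calmodulin and calmodulin-like genes, which encode small calcium sensors, 4 were higher and 9 lower in L6 of WT, and 2 and 10 in OE. Both directions together, the share called was near that of all genes. Lower calls outnumbered higher calls by more than over all genes, and this split was not tested. The median log2 difference of this list was -0.11 in WT and -0.29 in OE, beside -0.02 over all genes in each. CML4 fell from 1088 ± 258 in WT_L3 to 69.5 ± 45.2 in WT_L6 (log2 -3.79, limma adjusted p = 7.18e-05), while the calmodulin gene CAM3 was at 1618 ± 294 and 1656 ± 57.02 without passing (log2 0.05). The CML4 probe set is of the _s_at type, so related transcripts are not told apart. Of 11 calcium channel, pump and exchanger genes, 2 were higher and 6 lower in WT, and 2 and 7 in OE, with medians of -0.43 and -0.44. The calcium pump genes ACA8 and ACA5 went opposite ways, from 491 ± 57.3 to 149 ± 24.1 (log2 -1.62, limma adjusted p = 0.000287) and from 179 ± 36.2 to 428 ± 25.5 (log2 1.201, limma adjusted p = 0.000722).

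Of 5 measured genes for targets and partners of these kinases, 4 were lower in L6 of WT and 4 in L6 of OE, against the 26.8% and 25.4% of all genes given above. AKT1, the potassium channel that CIPK23 activates, fell from 1079.8 ± 267 to 176 ± 93.7 in WT (log2 -2.59, limma adjusted p = 0.000454) and from 765 ± 170.3 to 186 ± 71.04 in OE. HAK1, a potassium transporter, fell from 1146 ± 241 to 66.8 ± 5.25 in WT (log2 -3.79, limma adjusted p = 1.07e-06). HAK5 and the catalase gene CatB fell by smaller steps (log2 -0.35 and -0.50), and RBOHB, an oxidase that makes superoxide, did not pass (0.36, limma adjusted p = 0.125). The probe sets of AKT1 and HAK1 are of the _x_at type and that of CatB of the _s_at type, which can also bind related transcripts. Further probe sets of genes in these lists are not given here. Of 16 related kinase genes, such as the SAPK kinases of abscisic acid signalling, 2 were higher and 7 lower in each genotype, against 49.3% of all genes called in WT and 42.6% in OE. Their median log2 difference was -0.08 in WT and -0.04 in OE. SAPK10 rose from 201 ± 49.1 to 489 ± 100.2 in WT (log2 1.22, limma adjusted p = 0.0027), and SAPK6 fell from 734 ± 167 to 333 ± 56.8 (log2 -1.09, limma adjusted p = 0.00202). The genes CRK6 and CRK10 in the last list are matched by name, and which family that name stands for is not settled here. None of the genes in these 4 lists passed for OE against WT in either leaf or in the interaction.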

How the data were processed

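RNA from the 12 leaves was made into biotinylated cRNA, per the labels' protocols. The deposited values are linear intensities of 57381 probe sets, and how the authors summarized and scaled them is not given in the sources used here. Array medians differed by at most 0.117 on the log2 scale, so the table was used as it stands. If the authors scaled arrays to a common level, a shift shared by all transcripts is not seen.

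In R 4.3.3, log2(intensity + 16) was fitted with limma 3.58.1 (eBayes with a trend) over 4 groups, without 187 array controls and without an expression filter. The fit was run on simulated data with known changes. These had the same spread in every group, unlike the arrays here, so that run does not check the pooled spread. Python 3.11.15, pandas 2.3.3 and matplotlib 3.10.9 did the rest. Names came from the platform annotation (22436 probe sets with 1 gene, 95 with several, 34850 not listed) by way of gene IDs in an NCBI table (assembly ASM3414082v1), which served for names alone. The brightest probe set stood for a gene; 11 members have several. Sequences were not used here.

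Members, gene lists and the naming rule were chosen with earlier results of these data known. The rule for named genes takes, per family, the 4 highest and 4 lowest called leaf differences in WT, the 2 smallest p per other comparison, and the 2 brightest. Leaves of 1 replicate number come from the same plant or line, per the labels. Their deviations from the group means correlated at -0.21, -0.30 and -0.04 in WT and 0.10, 0.13 and 0.17 in OE. Replicates are separate plants or lines. Alternatives were quantile normalization, pseudocounts of 1 and 64, filters at the 40th and 60th percentile, no trend, robust variances, blocks, only the groups compared, other choices of probe set, a 2-fold minimum, and each array left out.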

Additional observations from a re-analysis of the deposited data

Results flagged for a closer look

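A signal in data outside the counts was seen for 3 genes, where a probe set that is not the brightest of its gene passed in limma and the brightest did not. The second CIPK23 probe set had log2 differences of L6 minus L3 of -1.55 in WT and -1.23 in OE. The second CIPK7 probe set had -1.08 in WT, and a further CIPK31 probe set had 0.38 in OE. With the mean of all probe sets per gene in place of the brightest, 27 members differed between leaves in WT and 21 in OE. That setting adjusts over genes and not over all probe sets, and no share over all genes was computed for it. CBL6 in WT and CBL3 in OE, with 1 probe set each, also passed under it at unchanged log2 differences. Its counts thus do not differ by the further probe sets alone. Which transcript each probe set reads was not tested.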

How the results depend on the processing

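The counts of members called between leaves (23 in WT and 19 in OE) stayed within 17 to 27 and 13 to 21 under the other settings with all arrays, apart from a 2-fold minimum, which left 9 and 7. With the plant as a replicate block they were 19 and 13, and with the replicate number as a block 22 and 18. With the plant as a random block (estimated correlation -0.0665) they were 23 and 18. With 1 array left out they ran from 15 to 25 in WT and from 12 to 21 in OE. The lowest WT count was without WT_L3 replicate 2, and the lowest OE count of 12 was reached without OE_L3 replicate 3, OE_L6 replicate 1 or OE_L6 replicate 2. Of the called members, 14 of 23 in WT and 11 of 19 in OE passed without any 1 of the 12 arrays. Counts with arrays left out were not made over all genes, so they are not set against the whole array. Without WT_L3 replicate 1 and OE_L6 replicate 1 together, a setting chosen after seeing the data, they were 26 and 17. The counts for OE against WT in L3 and L6 and for the interaction were 0 under every setting run. With 1 array left out the interaction of CBL3, 0.03, ran from -0.0048 to 0.0791. It was below 0 without OE_L6 replicate 3 (-0.00372) and without WT_L6 replicate 2 (-0.0048), and did not pass in either. The cause of these shifts was not tested. Mean signals under 41.6 limit 9 members, whose changes come out too small on the scale used. That none of them passed does not show that they did not change.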
